A study of Arabidopsis thaliana with 9 samples.

Results

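The genes described here encode cytochrome P450 enzymes (P450), UDP-dependent glycosyltransferases (UGT) and glutathione S-transferases (GST) of Arabidopsis thaliana. They were chosen by name: a probe set had to name exactly 1 gene whose symbol starts with CYP7, CYP8, CYP9, UGT, GSTU or GSTF, and UGT78D2 was left out. The rule found 82 of 13350 named genes, each with 1 probe set. One of them, CYP71 (AT3G44600), is a cyclophilin by the synonyms of the RefSeq gene table, a protein-folding enzyme that shares only its abbreviation with the P450 family. It is counted apart, which leaves 81 genes, namely 23 P450, 46 UGT and 12 GST genes. Of the GST genes, 11 belong to the tau group (GSTU) and 1 to the phi group (GSTF). Of the P450 genes, 19 belong to the single subfamily CYP71B, and the others are CYP718, CYP78A9, CYP79A2 and CYP84A4. CYP71B27, counted among the 19, is a transcribed pseudogene by the RefSeq gene table and may encode no enzyme. Enzymes that the annotation lists under another symbol are not included. The annotation names no gene for 8730 of the 22746 probe sets tested, and enzymes measured only by those are missing too.

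Transcripts were measured in seedlings on 9 Affymetrix arrays. The OsSAP11 line (line 22, n = 3) expresses the rice gene OsSAP11, which encodes a stress-associated protein with A20 and AN1 zinc fingers. The OsRLCK253 line (line 25, n = 3) expresses OsRLCK253, the gene of a receptor-like cytoplasmic kinase from rice. Wild type (n = 3) served as the control, and the ecotype of all 3 groups is labelled col 1. The seedlings were 21 days old and untreated, and they grew on diluted MS medium with no antibiotic selection. Each transgene is represented by a single line, so line and transgene cannot be told apart, and the labels do not give the promoter that drives it. The replicates are labelled biological. On a linear scale, array medians lay between 42.9 and 46.2. Arrays correlated over all probe sets, a description since genes are not independent, with r from 0.993 to 0.997 within groups and from 0.973 to 0.993 between groups. The 18 spike-in controls added at hybridisation were lower in each line than in wild type, by a median log2 value of -0.26 in OsSAP11 seedlings and -0.17 in OsRLCK253 seedlings, and their part in the results below was not tested. Of 13 fixed tissue markers, 4 had a probe set that the annotation gives to them alone. The leaf gene LHCB4.2 had mean signals of 20222 in OsSAP11 seedlings, 20725 in OsRLCK253 seedlings and 12107 in wild type, and the root gene PYK10 had 6984, 7994 and 6783 in the same groups, so leaf and root transcripts were both present. LHCB4.2 rose by a log2 value of 0.74 (adjusted p = 0.000914) in OsSAP11 seedlings and of 0.78 (adjusted p = 0.000463) in OsRLCK253 seedlings, the leaf genes RCA and PRK also rose in both lines, with log2 changes of 0.24 to 0.48 (adjusted p from 0.00419 to 0.0272), PYK10 did not pass in either line, and the part of tissue make-up in the results below was not tested. In whole seedlings, fewer cells of a type and less RNA per cell cannot be told apart.

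The 3 classes act one after another on many small molecules. P450 enzymes, which sit in the membrane of the endoplasmic reticulum, use molecular oxygen to add a hydroxyl group or otherwise oxidise a substrate. UGT enzymes attach a sugar from a UDP-sugar to such a group, and tau and phi GST enzymes attach the tripeptide glutathione to reactive compounds. Conjugates of both kinds are moved into the vacuole. The same families make plant products: flavonol glycosides, glucosinolates (the sulphur-rich defence compounds of the cabbage family), camalexin, and the glucose conjugates that store or inactivate auxin, cytokinin, abscisic acid and salicylic acid.

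Many of the genes were at the dim end of the array. A total of 39 of the 81 genes had signals under 16 on all 9 arrays, and another 39 had a mean signal above 32. Among all 22746 probe sets tested, 8299 were under 16 on all arrays and 12361 had a mean signal above 32. Signals under 16 were the rule among P450 genes, with 14 of 23 genes, against 22 of 46 UGT genes and 3 of 12 GST genes. The dim genes included CYP79A2, which acts in the synthesis of benzylglucosinolate, with signals from 4.41 to 4.73 over all arrays, and UGT74F1, a salicylic acid glucosyltransferase, with signals from 5.69 to 6.17. UGT71B6, an abscisic acid glucosyltransferase, lay between 4.77 and 6.14. Such signals lie near the floor of the array, where a change of transcript level may not be detectable.

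Relative to wild type, a few genes of each class moved while most did not pass the test. In the OsSAP11 line 9 of 81 genes rose and 4 fell (adjusted p under 0.05, limma over all 22746 probe sets). Together these are 16.05% of the genes, near the 12.6% called among all probe sets tested, of which 7.44% were higher and 5.17% lower. In the OsRLCK253 line 12 genes rose and 2 fell, or 17.3%, also near the 13.8% of all probe sets, with 6.95% higher and 6.85% lower. By direction, the 12 are a larger share of the 81 genes than 6.95%, and the 2 a smaller one than 6.85%. Of the 39 genes with a mean signal above 32, 11 were called in each line. Among all probe sets with such signals, 21.0% were called in OsSAP11 seedlings and 22.9% in OsRLCK253 seedlings. These counts were not tested as a set. By class, the OsSAP11 line had 3 P450, 5 UGT and 1 GST genes higher and 1, 2 and 1 lower. The OsRLCK253 line had 3 P450, 6 UGT and 3 GST genes higher, and the 2 genes that fell were UGT genes. All log2 and fold changes are those of signal + 16, a setting that makes the changes of dim genes smaller. Folds are therefore smaller than the ratios of the signals given.

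The class medians include the many genes near the floor. In the OsSAP11 line the median log2 change was -0.0025 for P450, -0.0027 for UGT and -0.0067 for GST genes, against -0.0021 over all probe sets tested. In the OsRLCK253 line it was 0.035 for P450, 0.034 for UGT and 0.15 for GST genes, against 0.014 over all probe sets, and the GST value was 0.042 without OsRLCK253 replicate 3 and 0.030 with array weights. Over the 8 P450 genes with a mean signal above 32 the median was 0.40 in OsSAP11 seedlings and 0.25 in OsRLCK253 seedlings. It was 0.082 and 0.14 over the 22 such UGT genes and -0.037 and 0.30 over the 9 such GST genes in the same lines. All probe sets with such signals had 0.051 and 0.013. The highest of these class medians was thus that of P450 genes in OsSAP11 seedlings and that of GST genes in OsRLCK253 seedlings. The widest range was that of the UGT genes, from -1.26 to 1.18 in OsSAP11 seedlings and from -1.28 to 1.77 in OsRLCK253 seedlings. P450 genes ranged from -0.44 to 1.46 and from -0.31 to 1.01 in the same lines, and GST genes from -0.83 to 0.43 and from -0.16 to 0.65.

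**Figure D1:**
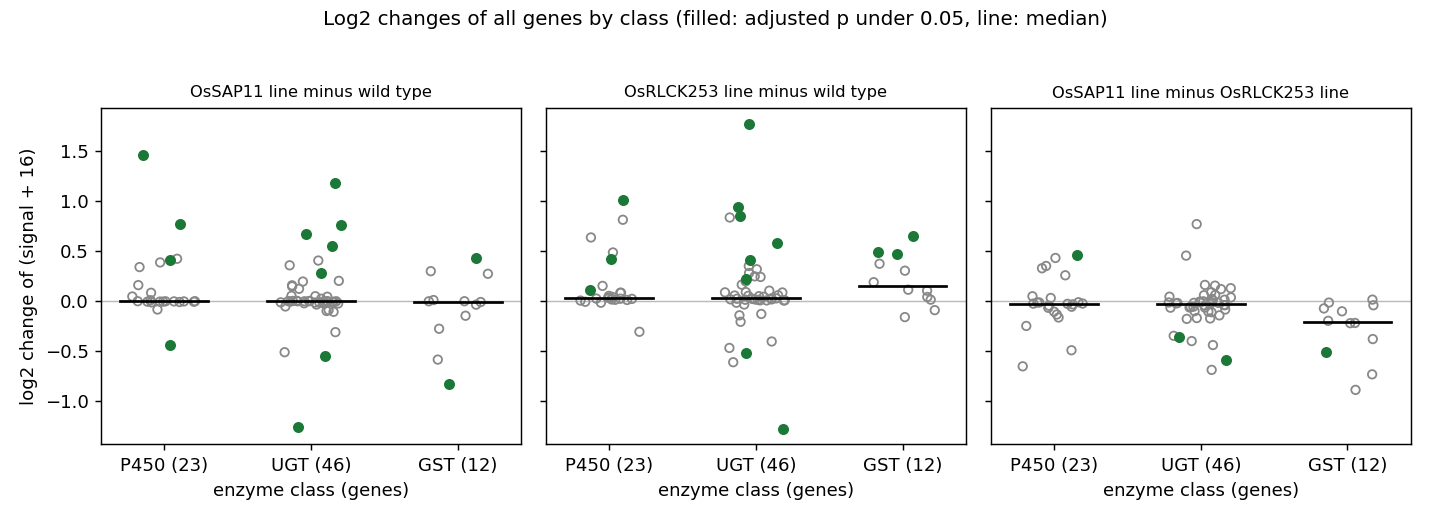
Log2 change of signal + 16 (vertical axis) for each of the 23 P450, 46 UGT and 12 GST genes in the 3 comparisons. Each point is a gene, filled where the adjusted p was under 0.05, and the line is the class median. Most points lie near 0, and each class has filled points. Only for the OsSAP11 line against wild type do they lie on both sides of 0 in every class.

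Among the P450 genes, CYP71B26 (AT3G26290) changed most. Its signals were 715, 694 and 793 in OsSAP11 seedlings, 482, 562 and 549 in OsRLCK253 seedlings, and 243, 285 and 241 in wild type. The 3 groups did not overlap, with the OsSAP11 line highest and wild type lowest. The rise over wild type was 1.46 ± 0.089 on the log2 scale (SE, adjusted p = 0.000483), or 2.76-fold, in OsSAP11 seedlings. In the OsRLCK253 line it was 1.01 ± 0.089 (adjusted p = 0.000866), or 2.01-fold. CYP71B35 (AT3G26310) followed the same order of groups. It had signals of 136, 133 and 128 in OsSAP11 seedlings, 93.2, 101 and 107 in OsRLCK253 seedlings, and 69.2, 81.9 and 63.6 in wild type, again with no overlap. It rose by 0.77 ± 0.080 (adjusted p = 0.00227) in OsSAP11 seedlings and by 0.42 ± 0.080 (adjusted p = 0.0168) in OsRLCK253 seedlings. CYP71B34 (AT3G26300) rose by 0.41 ± 0.076 (adjusted p = 0.0163) in OsSAP11 seedlings, with signals of 158, 135 and 138, against 109, 102 and 102 in wild type. In the OsRLCK253 line it had 121, 112 and 100, within reach of wild type, and its log2 change of 0.083 did not pass (adjusted p = 0.474). No function is assigned here to these 3 genes. The best-studied CYP71B enzyme, PAD3, makes camalexin, the phytoalexin of Arabidopsis, and is not among the genes measured by this rule.

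The other calls in this class lay near the floor of the array. CYP71B22 had signals of 4.95, 5.23 and 5.48 in OsSAP11 seedlings, 11.2, 5.30 and 5.85 in OsRLCK253 seedlings, and 12.9, 12.5 and 13.2 in wild type. It was called lower in OsSAP11 seedlings (-0.44 ± 0.087, adjusted p = 0.0197), although every signal was under 16, and the size of this change was -1.16 with 1 added to the signals in place of 16. CYP71B37 was called higher in OsRLCK253 seedlings (0.11 ± 0.029, adjusted p = 0.0453) with signals of 10.7, 8.94 and 9.81, against 7.96, 7.89 and 7.63 in wild type. The other genes of this class with high signals did not pass in either line. CYP71B6 had signals of 416, 476 and 437 in OsSAP11 seedlings and 392, 394 and 506 in OsRLCK253 seedlings, against 400.1, 443 and 410 in wild type, so all groups overlapped. CYP71B28 had 390.1, 399 and 429 in OsSAP11 seedlings and 323, 345 and 344 in OsRLCK253 seedlings, against 337, 265 and 358 in wild type. Its log2 change in OsSAP11 seedlings was 0.34 ± 0.10 (adjusted p = 0.0888). CYP78A9, a regulator of fruit and seed size, and CYP84A4, an enzyme of pyrone synthesis, were under 16 on all arrays.

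The 3 P450 genes that rose in OsSAP11 seedlings are neighbours. By the gene order of the RefSeq table (TAIR10.1), CYP71B25, CYP71B26, CYP71B34, CYP71B35, CYP71B36 and CYP71B37 follow one another with at most 1 other gene between. Within this run of 6 genes the outcomes differed. CYP71B25 stayed between 5.91 and 7.09 on all arrays. CYP71B36 had 7.58, 7.86 and 7.65 in OsSAP11 seedlings and 25.2, 10.4 and 18.0 in OsRLCK253 seedlings, against 7.53, 7.84 and 8.08 in wild type. Its log2 change of 0.49 ± 0.14 in OsRLCK253 seedlings did not pass (adjusted p = 0.0738). A second run of 4 genes, CYP71B21 to CYP71B24, had no gene that rose by the test, and CYP71B24 and CYP71B23 had log2 changes of 0.64 (adjusted p = 0.0801) and 0.81 (adjusted p = 0.104) in OsRLCK253 seedlings. A probe set outside the rule, shared by CYP71B20 and CYP71B19, had signals of 552, 533 and 762 in OsSAP11 seedlings and 401, 480 and 476 in OsRLCK253 seedlings, against 311, 277 and 335 in wild type. It was called higher in OsSAP11 seedlings (0.95, adjusted p = 0.00895) and not in OsRLCK253 seedlings (0.53, adjusted p = 0.0643). CYP71B genes are close copies of each other, and whether their probe sets pick up related transcripts was not tested.

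**Figure D2:**
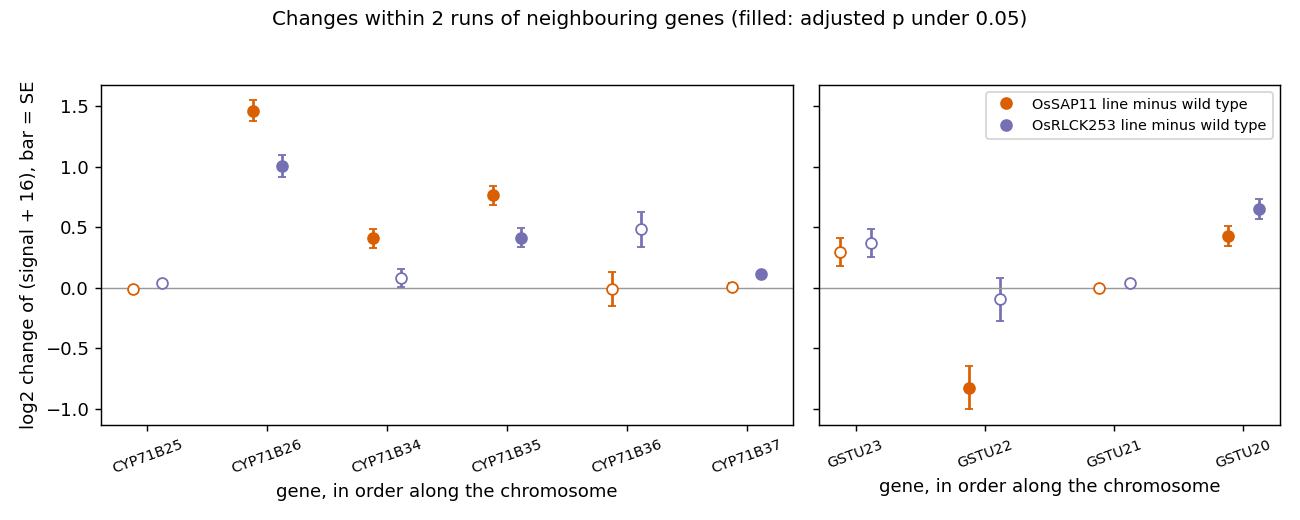
Log2 change against wild type (vertical axis, bars are SE of the model) in the order of the genes along the chromosome, for the run of 6 CYP71B genes and the run of 4 GSTU genes. Filled points had an adjusted p under 0.05. In the CYP71B run the called points lie above 0, and CYP71B25 lies near it in both lines, and in the GSTU run GSTU22 and GSTU20 lie on opposite sides in OsSAP11 seedlings.

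Among the UGT genes the largest rise was that of UGT78D1 (AT1G30530), which adds rhamnose to flavonols such as kaempferol and quercetin. It had signals of 846, 700 and 582 in OsSAP11 seedlings, 1033, 1074 and 1089 in OsRLCK253 seedlings, and 303, 284 and 314 in wild type. The groups did not overlap, and the OsRLCK253 line was highest. The rise was 2.27-fold (log2 1.18 ± 0.12, adjusted p = 0.00224) in OsSAP11 seedlings and 3.42-fold (log2 1.77 ± 0.12, adjusted p = 0.000385) in OsRLCK253 seedlings. UGT78D3, a related flavonol arabinosyltransferase, was under 16 on all arrays.

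UGT88A1 (AT3G16520) had signals of 2183, 2585 and 2320 in OsSAP11 seedlings and 2564, 2815 and 2636 in OsRLCK253 seedlings, against 1253, 1354 and 1548 in wild type. Every array of both lines was above every wild type array. It rose by 0.77 ± 0.092 (adjusted p = 0.00368) in OsSAP11 seedlings and by 0.94 ± 0.092 (adjusted p = 0.0013) in OsRLCK253 seedlings. UGT74D1 (AT2G31750), which glucosylates auxin and its oxidised form, had 447, 454 and 440 in OsSAP11 seedlings and 586, 464 and 476 in OsRLCK253 seedlings, against 240, 271 and 316 in wild type. Its rises were 0.67 ± 0.12 (adjusted p = 0.0125) and 0.85 ± 0.12 (adjusted p = 0.00455) in the same lines, with no overlap with wild type.

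UGT74B1 (AT1G24100) acts in the synthesis of glucosinolates by adding glucose to sulphur. It had signals of 952, 1065 and 1127 in OsSAP11 seedlings and 989, 1090 and 1129 in OsRLCK253 seedlings, against 705, 732 and 695 in wild type. Both lines lay wholly above wild type and overlapped with each other. The rise was 0.55 ± 0.071 (adjusted p = 0.00478) in OsSAP11 seedlings and 0.58 ± 0.071 (adjusted p = 0.00315) in OsRLCK253 seedlings. UGT72B3 was dimmer, with 27.1, 27.2 and 31.4 in OsSAP11 seedlings and 26.05, 26.7 and 27.6 in OsRLCK253 seedlings, against 19.5, 23.5 and 19.5 in wild type. It was called higher in OsSAP11 seedlings (0.28, adjusted p = 0.0199) and in OsRLCK253 seedlings (0.22, adjusted p = 0.0423). UGT84A4, which forms glucose esters of hydroxycinnamic acids, was called higher in OsRLCK253 seedlings (0.41 ± 0.061, adjusted p = 0.00666), with signals of 23.4, 22.3 and 25.5, against 12.4, 14.7 and 14.7 in wild type. In the OsSAP11 line it had 12.9, 17.4 and 14.9, overlapping with wild type.

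UGT73B1 (AT4G34138) was the UGT gene with the largest fall. It had signals of 58.6, 70.9 and 70.5 in OsSAP11 seedlings and 75.9, 50.6 and 71.7 in OsRLCK253 seedlings, against 180, 178 and 187 in wild type. All 6 arrays of the lines were well under the wild type arrays. The fall was 2.39-fold (log2 -1.26 ± 0.13, adjusted p = 0.00194) in OsSAP11 seedlings and 2.43-fold (log2 -1.28 ± 0.13, adjusted p = 0.0013) in OsRLCK253 seedlings. The related UGT73B5, which takes part in the hypersensitive response to bacteria, had 25.98, 24.0 and 26.5 in OsSAP11 seedlings and 30.4, 25.6 and 33.8 in OsRLCK253 seedlings, against 56.1, 46.0 and 34.0 in wild type. It fell by 0.55 (SE 0.13, adjusted p = 0.0407) in OsSAP11 seedlings, and its log2 change of -0.41 in OsRLCK253 seedlings did not pass (adjusted p = 0.0993). UGT73B4, the gene next to it, was under 16 on all arrays. A probe set shared by UGT73B2 and UGT73B3, outside the rule, had log2 changes of -0.46 (adjusted p = 0.208) and -0.47 (adjusted p = 0.171) in OsSAP11 and OsRLCK253 seedlings.

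UGT71C5 (AT1G07240), which inactivates abscisic acid by glucosylation, had 101, 109 and 117 in OsSAP11 seedlings and 123, 116 and 89.1 in OsRLCK253 seedlings, against 157, 143 and 189 in wild type. Neither line overlapped with wild type. Its log2 changes were nearly equal, -0.51 in OsSAP11 seedlings and -0.52 in OsRLCK253 seedlings (SE 0.13 each), and only the second was called (adjusted p = 0.0535 and adjusted p = 0.0488). Its neighbours differed from it: UGT71C4 had log2 changes of 0.19 (adjusted p = 0.301) and 0.28 (adjusted p = 0.123) in the same lines, and UGT71C3 had signals from 9.90 to 15.99.

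Other hormone glucosyltransferases did not pass in either line. The cytokinin enzymes UGT76C1 and UGT76C2, also neighbours, had log2 changes of -0.055 and -0.11 in OsSAP11 seedlings and of -0.21 (adjusted p = 0.0995) and 0.24 (adjusted p = 0.0929) in OsRLCK253 seedlings. UGT76B1, which conjugates salicylic acid and isoleucic acid, had signals of 29.0, 39.7 and 35.4 in OsSAP11 seedlings and 53.7, 54.0 and 44.8 in OsRLCK253 seedlings, against 46.0, 47.1 and 47.0 in wild type. Its log2 change in OsSAP11 seedlings was -0.31 ± 0.087 (adjusted p = 0.0645). UGT80B1, a sterol glucosyltransferase, had log2 changes of -0.016 in OsSAP11 seedlings and -0.47 ± 0.19 (adjusted p = 0.167) in OsRLCK253 seedlings. Of the monolignol glucosyltransferases, UGT72E2 had signals of 339, 468 and 309 in OsSAP11 seedlings and 678, 383 and 830 in OsRLCK253 seedlings, against 277, 467 and 276 in wild type. Its log2 change of 0.84 in OsRLCK253 seedlings had an SE of 0.34 and did not pass (adjusted p = 0.162). UGT72E1 had 0.20 and 0.25 in OsSAP11 and OsRLCK253 seedlings, and UGT72E3 was under 16 on all arrays.

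**Figure D3:**
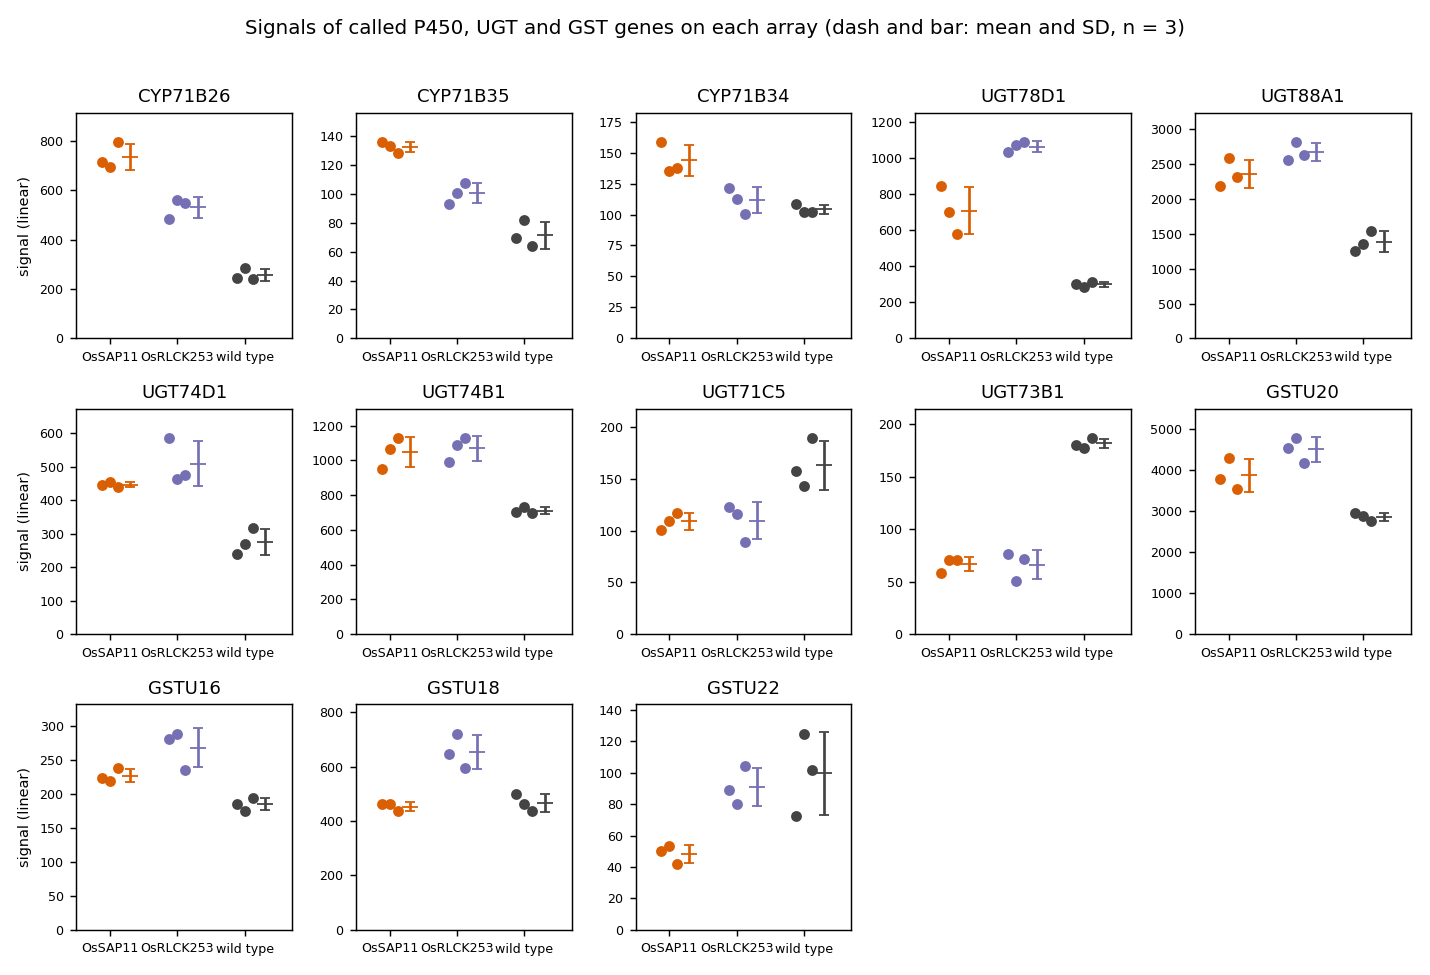
Signals on a linear scale (vertical axis, from 0) for the 13 genes called in at least 1 line with a mean signal above 64. Points are arrays, and the dash with its bar is the mean and SD of 3 arrays. UGT78D1, UGT88A1, UGT74D1, UGT74B1, GSTU20, GSTU16, CYP71B26 and CYP71B35 lie above wild type in both lines, and UGT73B1 and UGT71C5 lie below it.

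Among the GST genes, GSTU20 (AT1G78370), a tau enzyme that binds the jasmonate-conjugating protein FIN219, had signals of 3786, 4311 and 3534 in OsSAP11 seedlings and 4555, 4786 and 4188 in OsRLCK253 seedlings, against 2962, 2874 and 2754 in wild type. No array of either line fell within the wild type range. It rose by 0.43 ± 0.081 (adjusted p = 0.0173) in OsSAP11 seedlings and by 0.65 ± 0.081 (adjusted p = 0.00323) in OsRLCK253 seedlings. GSTU16 had 223, 219 and 238 in OsSAP11 seedlings and 281, 289 and 235 in OsRLCK253 seedlings, against 186, 176 and 194 in wild type. It rose by 0.49 ± 0.078 (adjusted p = 0.00792) in OsRLCK253 seedlings, and its log2 change of 0.27 in OsSAP11 seedlings did not pass (adjusted p = 0.0712) although the groups did not overlap. GSTU18 had 462, 462 and 436 in OsSAP11 seedlings and 646, 721 and 595 in OsRLCK253 seedlings, against 500, 462 and 436 in wild type. It rose by 0.47 ± 0.077 (adjusted p = 0.00916) in OsRLCK253 seedlings, while the OsSAP11 line overlapped with wild type (-0.037, adjusted p = 0.949).

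GSTU22 (AT1G78340) fell in OsSAP11 seedlings by 0.83 (SE 0.18, adjusted p = 0.0272). Its signals were 50.0, 53.2 and 41.6 in OsSAP11 seedlings and 89.0, 80.0 and 104 in OsRLCK253 seedlings, against 72.4, 125 and 102 in wild type, so that only the OsSAP11 line lay apart from wild type. GSTU23, GSTU22, GSTU21 and GSTU20 are neighbours with at most 2 other genes between, and in OsSAP11 seedlings the run held a gene that fell and a gene that rose. GSTU21 was under 16 on all arrays, and GSTU23 had log2 changes of 0.30 (adjusted p = 0.171) and 0.37 (adjusted p = 0.0896) in OsSAP11 and OsRLCK253 seedlings. The other neighbouring pair, GSTU25 and GSTU26, did not pass. GSTU25, an enzyme known for conjugating the explosive TNT, had signals of 94.5, 106 and 73.5 in OsSAP11 seedlings and 215, 101 and 268 in OsRLCK253 seedlings, against 130, 195 and 117 in wild type. GSTU27 had 540, 510.5 and 481 in OsSAP11 seedlings and 549, 589 and 627 in OsRLCK253 seedlings, against 511, 466 and 570 in wild type, with no call. The phi gene GSTF4 was lower on all arrays of both lines than in wild type, with means of 36.2, 35.7 and 42.0 in the same order, and did not pass (adjusted p = 0.101 and adjusted p = 0.0735).

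**Figure D4:**
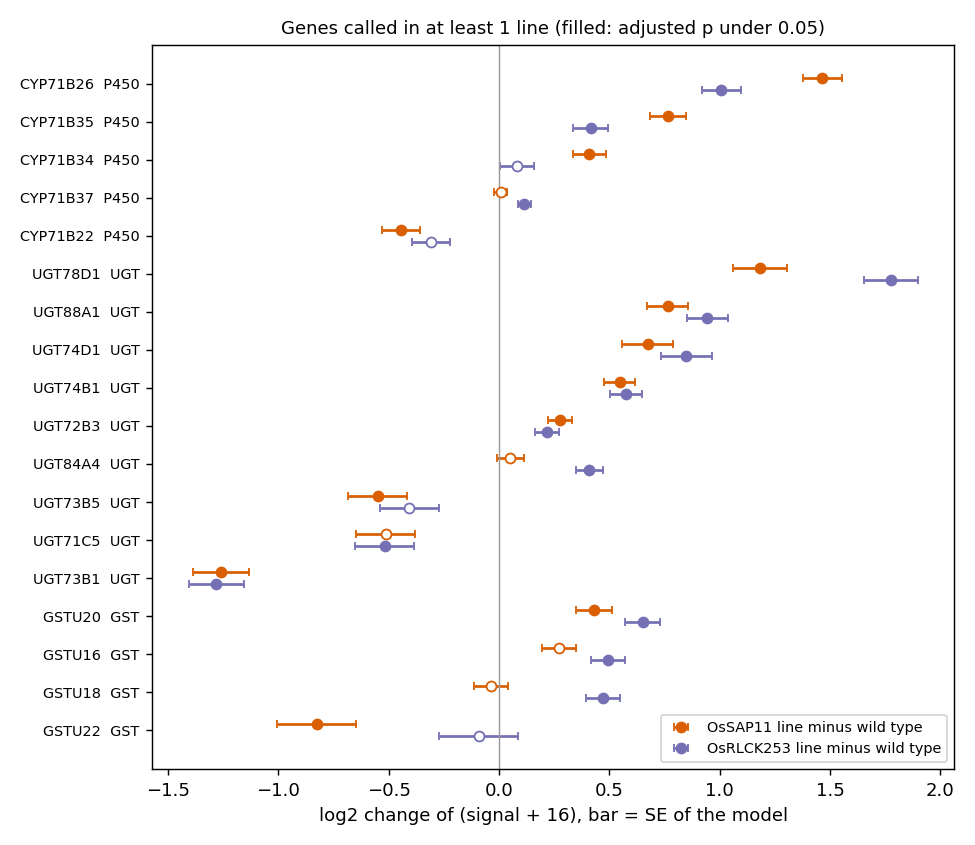
Log2 change against wild type (horizontal axis, bars are SE of the model) in OsSAP11 seedlings and the OsRLCK253 line for the 18 genes called in at least 1 of them. Filled points had an adjusted p under 0.05. Both sets of changes use the same wild type arrays. CYP71B26 lies at 1.46 and 1.01 and UGT78D1 at 1.18 and 1.77 in OsSAP11 and OsRLCK253 seedlings.

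Compared directly, the lines differed in few of these genes. The OsSAP11 line was higher than the OsRLCK253 line in 1 gene and lower in 3 of the 81, or 4.94%, against 5.21% of all probe sets tested, of which 3.34% were higher and 1.87% lower. CYP71B26 was higher in OsSAP11 seedlings by 0.46 ± 0.089 (adjusted p = 0.0373). UGT78D1 was lower by 0.59 (SE 0.12, adjusted p = 0.0448), with 582 to 846 in OsSAP11 seedlings, against 1033 to 1089 in OsRLCK253 seedlings. GSTU18 had a log2 difference of -0.51 ± 0.077 (adjusted p = 0.0184), and UGT84A4 one of -0.36 ± 0.061 (adjusted p = 0.0259). For each of these 4 genes the arrays of the lines did not overlap. Close to the threshold were UGT76B1 (-0.40, adjusted p = 0.0501), UGT76C2 (-0.35, adjusted p = 0.0524), CYP71B35 (0.35, adjusted p = 0.0568), CYP71B34 (0.33, adjusted p = 0.0598) and GSTU22 (-0.73, adjusted p = 0.0673). The median difference was -0.026 for P450, -0.027 for UGT and -0.21 for GST genes, against -0.012 over all probe sets. The P450 value turned to 0.29 over the 8 genes with a mean signal above 32, against 0.041 over all such probe sets. With the same filter the UGT value was -0.013 and the GST value -0.22. A negative difference was found for 11 of 12 GST, 16 of 23 P450 and 32 of 46 UGT genes, against 13973 of the 22746 probe sets. These counts include signs of genes under 16 on all arrays, namely 3 GST, 14 P450 and 22 UGT genes. Among all probe sets with a mean signal above 32, 5380 of 12361 had a negative difference.

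These calls were not equally firm. All 4 calls between the lines were lost in limma fits of the lines alone, without the wild type arrays, and leaving out 1 array at a time ended each call in 3 to 8 of 9 fits, with adjusted p up to 0.119. Against wild type, CYP71B26, UGT78D1, UGT88A1, UGT74D1, UGT74B1 and UGT73B1 kept their calls in both lines in every fit that left out 1 array, as did CYP71B35 in OsSAP11 seedlings and GSTU20, GSTU16, GSTU18 and UGT84A4 in OsRLCK253 seedlings. The other calls were lost in 1 to 8 of those fits. In the OsSAP11 line, CYP71B34 was not called without wild type replicate 3 (adjusted p = 0.0524), GSTU20 without OsSAP11 replicate 1 or wild type replicate 3 (adjusted p up to 0.0562), and UGT72B3 without wild type replicate 1 or 3 (adjusted p up to 0.0704). GSTU22 was not called without any 1 of the OsSAP11 arrays or without wild type replicate 2 or 3 (adjusted p up to 0.0861). CYP71B22 lost its call without any 1 array of the OsSAP11 line or wild type (adjusted p up to 0.0664), and UGT73B5 without any array but wild type replicate 3 (adjusted p up to 0.12). In the OsRLCK253 line, CYP71B35 lost its call without OsRLCK253 replicate 2 or 3 or wild type replicate 1 (adjusted p up to 0.062). CYP71B37 and UGT72B3 lost theirs in 7 of the 9 fits (adjusted p up to 0.123 and up to 0.134) and UGT71C5 in 8 (adjusted p up to 0.12).

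Other steps of the same pathways could be followed only in part. A fixed list of 48 genes covered glutathione supply, other GST classes, electron supply to P450 enzymes, UDP-sugars and conjugate transport. It also covered xenobiotic regulators, oxylipin reductases and 1 further P450. By the annotation, 3 of the 48 genes had a probe set of their own. The annotation names no gene for 8730 of the 22746 probe sets tested, so genes missing here may still be on the array. Glutathione reductase regenerates glutathione from its oxidised form. Its cytosolic gene GR1 (AT3G24170) had signals of 654, 638 and 585 in OsSAP11 seedlings and 873, 839 and 899 in OsRLCK253 seedlings, against 438, 457 and 483 in wild type. The 3 groups did not overlap. GR1 rose by 0.43 ± 0.053 (adjusted p = 0.004) in OsSAP11 seedlings and by 0.90 ± 0.053 (adjusted p = 0.000247) in OsRLCK253 seedlings, and the lines differed by -0.47 (adjusted p = 0.00886). The organellar gene GR2 (AT3G54660) had 1524, 1536 and 1415 in OsSAP11 seedlings and 1638, 2031 and 1689 in OsRLCK253 seedlings, against 881, 968 and 1117 in wild type. It rose by 0.59 ± 0.11 (adjusted p = 0.0163) in OsSAP11 seedlings and by 0.84 ± 0.11 (adjusted p = 0.00372) in OsRLCK253 seedlings. GSTL3, a GST of the lambda class, rose by 0.39 ± 0.077 (adjusted p = 0.0198) in OsSAP11 seedlings, with signals of 3922, 4635 and 4123, against 3433, 3064 and 3131 in wild type. In the OsRLCK253 line it had 3543, 3650 and 3252, and its log2 change of 0.12 did not pass (adjusted p = 0.341). In all, 3 of these 3 genes rose in OsSAP11 seedlings and 2 of 3 in OsRLCK253 seedlings, and none fell. Over all probe sets, 7.44% and 6.95% rose in the same lines, but those include many dim ones, and these 3 genes are bright. Of the 12361 probe sets with a mean signal above 32, 1554 rose in OsSAP11 seedlings and 1415 in OsRLCK253 seedlings. The 3 genes do not describe the 48 of the list. The rest of the list could not be matched to probe sets in this way.

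The cyclophilin gene CYP71 did not pass in any comparison. It had mean signals of 133 ± 8.06 in OsSAP11 seedlings, 132 ± 9.65 in OsRLCK253 seedlings and 136 ± 2.75 in wild type (SD, n = 3), with log2 changes of -0.027 and -0.036 against wild type.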

How the data were processed

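Each deposited value is an intensity on a linear scale. GCOS is named, per the submitters' processing notes. How signals were summarised, background-corrected and scaled is not given in the sources used here. Array medians differed by 0.0777 on the scale tested, log2(signal + 16), under a limit of 0.1, so the values were used as deposited. On the plain log2 scale they differed by 0.106. Without the 64 controls, 22746 probe sets were tested with no filter. limma 3.58.1 (R 4.3.3) fitted a mean for each group over the 9 arrays together (6 residual and 0.773 prior degrees of freedom), and p values were adjusted by Benjamini-Hochberg over all probe sets. It was tested on simulated data with known changes, and the outcome is not given here. The labels do not say whether arrays of the same replicate number belong together. No consistent pairing by replicate number was seen: correlations of deviations from group means ran from -0.127 to 0.181. The number of arrays limits the precision.

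All 82 genes matched the RefSeq gene table of TAIR10.1, used for names and gene order. The genes, lists and tests were chosen with earlier results of these data known, so counts and medians are descriptions. Values on every array are given for genes called with no overlap between groups (up to 8 per class and direction, 5 between lines) and for the 3 genes of highest signal per class. Promoter sequences and motifs were not used here.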

Additional observations from a re-analysis of the deposited data

Results flagged for a closer look

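The effects of the lines differed by the test of the difference itself (OsSAP11 line minus OsRLCK253 line, limma, adjusted p under 0.05) for 4 genes. CYP71B26 had a difference of 0.46 (adjusted p = 0.0373), GSTU18 of -0.51 (adjusted p = 0.0184), UGT78D1 of -0.59 (adjusted p = 0.0448) and UGT84A4 of -0.36 (adjusted p = 0.0259). These 4 are 4.94% of the 81 genes, against 5.21% of all probe sets. UGT84A4 had mean signals of 15.05 in OsSAP11 seedlings and 23.7 in OsRLCK253 seedlings, near the dim end of the array, so that its size depends on the 16 added to the signals.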

How the results depend on the processing

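The groups of each called gene did not overlap, so the 9 fits without 1 array could not reverse its direction. Most of the 11 alternatives could not either, since they keep the order of the arrays. Quantile normalization and median centring, which change the signals of each array, reversed no direction. The signal filter left out CYP71B22, CYP71B37, UGT72B3 and UGT84A4. Counts of genes called did move. For the OsSAP11 line against wild type, the 9 higher became 5 at an adjusted p under 0.01 and 6 to 10 without 1 array. The 4 lower became 2 in fits of 2 groups alone, 2 with the replicate block, 1 at 0.01 and 1 to 4 without 1 array. For the OsRLCK253 line, the 12 higher became 9 to 16 without 1 array. The 2 lower became 1 with 32 added to the signals, 4 with only mean signals above 32, 1 in fits of 2 groups alone, 7 with array weights, 1 with the replicate block, 1 at 0.01 and 1 to 3 without 1 array. Between the lines, the 1 higher became 0 with quantile normalization (4 at an unadjusted p under 0.05 by limma), 2 with median centring, 4 with the signal filter, 7 with array weights, 0 at 0.01 (5 unadjusted) and 0 to 3 without 1 array. The count stayed at 1 in fits of 2 groups alone and with the replicate block, but CYP71B26 lost its call in both, so another gene was called there. The 3 lower became 5 with quantile normalization, 8 with median centring, 6 with 1 added to the signals, 6 with the filter, 0 in fits of 2 groups alone (16 unadjusted), 5 with a trend and robust prior, 17 with array weights, 1 with the replicate block, 0 at 0.01 (26 unadjusted) and 0 to 7 without 1 array. The causes were not tested. With the replicate block, the calls of GSTU22, UGT72B3 and UGT73B5 in OsSAP11 seedlings, of CYP71B37, UGT71C5 and UGT72B3 in OsRLCK253 seedlings, and of CYP71B26, UGT78D1 and UGT84A4 between the lines were lost, and no other. Of the class medians, those of the P450 genes moved with 1 added to the signals to 0.088 in OsRLCK253 seedlings and to -0.097 between the lines. RefSeq symbols gave the same counts. Each gene had 1 probe set, so a dimmest probe set could not be tried.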

Other observations

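Some of these genes varied widely between replicates, a pattern chosen after the values were seen. GSTU25 and UGT72E2 had the largest pooled SD within groups of all 82 genes, 0.46 and 0.44 on the log2 scale, against a median of 0.14 over the genes with a mean signal above 32. UGT71C1 had 0.34, with signals of 26.8, 37.9 and 24.0 in OsSAP11 seedlings and 50.9, 27.0 and 64.2 in OsRLCK253 seedlings, against 26.7, 44.8 and 26.9 in wild type. For all 3 genes the highest array of each group was OsSAP11 replicate 2, OsRLCK253 replicate 3 and wild type replicate 2. This held for 7 of the 39 genes with a mean signal above 32 (17.9%), against 6.12% of 12361 probe sets with such signals. The 7 were GSTU25, UGT72E2, UGT71C1, UGT85A5, GSTU22, CYP71B6 and UGT71C4. They include the 3 genes from which the pattern was read, so the share of 17.9% is partly fixed by that choice. Whether those seedlings or arrays differed in handling was not tested. UGT85A5 also had 12.9, 23.5 and 44.3 in OsRLCK253 seedlings, against 45.6, 48.0 and 46.4 in wild type, and did not pass (-0.61, adjusted p = 0.163).

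Probe sets shared with another gene were outside the rule. That of UGT71D1 and AT2G29710 was called higher in OsRLCK253 seedlings (0.36, adjusted p = 0.0489), and that of UGT89B1 and AT1G73885 had log2 changes of 0.23 (adjusted p = 0.286) and 0.11 (adjusted p = 0.518) in OsSAP11 and OsRLCK253 seedlings.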
